A study of Mus musculus with 33 samples.

Results

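The CD11b+ and CD11b- alveolar macrophages (AMs) of mice with Zeb2 floxed and Cre in CD11c-expressing cells were compared. The 2 populations come from mice of the same genotype, Itgax-crexZeb2fl/fl. They were sorted from lung on surface CD11b, the integrin alpha M chain encoded by Itgam, so the design separates them by a surface protein. The comparison takes the 5 samples labeled CD11b+ and the 5 labeled CD11b-, together 10 of the 33 samples of the series, with every gene row of their count tables. AMs from Zeb2fl/fl mice without the Cre (CRE- AMs, 5 samples) are given beside them as the control level. Mice were 6 to 8 weeks old, and the control AMs also carried the floxed alleles. Cre under Itgax control acts in AMs and in other CD11c+ cells, and the floxed allele leaves a shortened transcript that still yields reads, so reads on Zeb2 do not measure how much of the gene was lost. The study describes EpCam- AMs of these mice that keep an undeleted copy of Zeb2. The CD11b sort does not remove such cells by design, so differences in their share and differences among fully deleted cells cannot be told apart here. The labels do not say whether each sample was 1 mouse or a pool.

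AMs live on the surface of the airspace, where they take up surfactant lipid and inhaled particles. They are held there by GM-CSF and TGF-beta and by the lipid-sensing nuclear receptor PPAR gamma, and unlike most other macrophages they carry little or no CD11b and high CD11c and Siglec-F. ZEB2 and its relative ZEB1 are zinc finger repressors, best known for switching off epithelial genes such as E-cadherin during epithelial to mesenchymal transition, through sites with the letters CACCTG in the promoters they bind.

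Each AM sample had between 17454078 and 23945366 reads on genes, and no difference was found between the CD11b+ and CD11b- totals (exact two-sided permutation test of the means, 5 against 5, p = 0.968, adjusted over 6 such measures 1). In the CD11b+ samples the 10 genes with most reads took 15.3% to 17.2% of the gene reads, against 13.4% to 14.6% in the CD11b- samples, with no overlap (exact two-sided permutation test, p = 0.00794, the smallest that 5 against 5 can give; adjusted 0.0238). All values below are CPM, counts per 1000000 reads, on library sizes corrected by edgeR's TMM factors, which ran from 0.901 to 0.938 in CD11b+ and from 1.020 to 1.048 in CD11b- AMs. A gene was called changed at an adjusted p under 0.05 and an absolute log2 fold change over 1, and every adjusted p comes from a quasi-likelihood fit in edgeR, adjusted by Benjamini and Hochberg's method over the 11573 genes tested. Fold changes are CD11b+ over CD11b-. The samples are bulk, so fewer cells of a type and less RNA per cell cannot be told apart.

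CD11b+ AMs had 793 genes higher and 382 lower than CD11b- AMs, or 10.2% of the genes tested (6.85% higher, 3.3% lower), while the median log2 fold change of all genes was 0.02. The CD11b+ and CD11b- samples did not overlap for 698 of the higher genes and 282 of the lower ones. Of all genes tested, 14.7% lay wholly higher and 11% wholly lower in CD11b+ samples. At an adjusted p under 0.05 with no limit on the fold, 19.8% of genes were higher and 16.6% lower. For each list below, the counts of higher and lower members are to be read beside 6.85% and 3.3% of all genes tested. The higher genes changed more: their median log2 fold change was 1.94, with 175 genes above 3, against -1.46 and 45 genes below -3 for the lower ones. The plot of level against change shows that the steepest increases were in genes with few reads, but that Cd177, S100a8, Trf and Ccl6, all with high reads, were also higher.

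**Figure D1:**
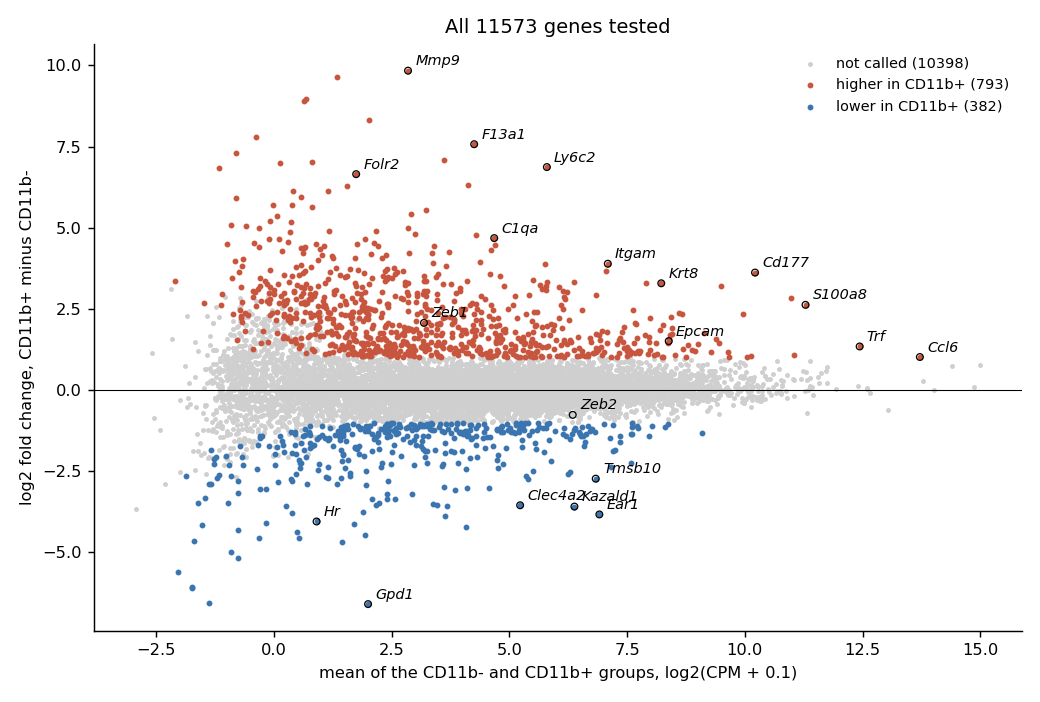
The horizontal axis is the mean of the CD11b- and CD11b+ groups as log2(CPM + 0.1), the vertical axis the log2 fold change of CD11b+ over CD11b- AMs, and each point is 1 of the 11573 genes tested. The 793 higher genes (red) reach a fitted log2 fold change of 9.84 (Mmp9, with 1 read in all CD11b- samples together), the labeled lower gene with the lowest value is Gpd1 at -6.60, and grey genes did not pass the cut-offs.

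The sort was visible in the RNA. Itgam, which encodes CD11b itself, had 261, 227, 270.1, 251 and 267 CPM in CD11b+ replicates 1 to 5 and 12.9, 17.2, 16.6, 22.1 and 17.3 CPM in CD11b- replicates 1 to 5. The groups did not overlap, and the log2 fold change was 3.89 ± 0.20 (SE), edgeR adjusted p = 4.43e-11; since the cells were sorted on its product, this checks the labels and is no finding. CRE- AMs held 0.383 to 3.33 CPM of Itgam, so the CD11b- samples also lay above the controls. Siglecf, which marks AMs, was present in all samples but lower in CD11b+ (189.5 to 234 CPM) than in CD11b- AMs (312 to 388 CPM), without overlap, at a log2 fold change of -0.75 that stayed inside the cut-off. Itgax, encoding CD11c and driving the Cre, had 1210 to 1355 CPM in CD11b+ and 907 to 1113 CPM in CD11b- AMs, and the pan-macrophage genes Adgre1 (F4/80) and Fcgr1 (CD64) had log2 fold changes of 0.40 and 0.41. The leukocyte gene Ptprc (CD45) overlapped between the groups, with 356 to 427 against 341 to 428 CPM and a log2 fold change of 0.00 ± 0.07 (SE), edgeR adjusted p = 0.971.

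Epcam and Cd101, surface proteins by which the study also gated AMs, were also higher in the CD11b+ cells, so the mix of EpCam+ and EpCam- cells, and with it of Zeb2 alleles, may differ between the groups, which was not tested. Epcam, an epithelial adhesion molecule, had 484, 527, 489, 459 and 510.4 CPM in the CD11b+ and 108, 173, 216, 229 and 142 CPM in the CD11b- replicates, with 11.00 to 20.6 CPM in CRE- AMs. The 3 groups formed steps with no overlap between CD11b+ and CD11b-, at a log2 fold change of 1.51 ± 0.17 (SE), edgeR adjusted p = 1.12e-06. Cd101, an inhibitory Ig-family receptor, showed the same order, from 22.1 to 26.2 CPM in CRE- through 124 to 204 CPM in CD11b- to 461 to 560.5 CPM in CD11b+ AMs (log2 fold change 1.56 ± 0.11 (SE), edgeR adjusted p = 2.23e-09).

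Reads on Zeb2 were lower in CD11b+ AMs, at 68.2, 66.2, 57.7, 59.7 and 48.9 CPM, than in CD11b- AMs, at 110.0, 106, 82.6, 110.1 and 103 CPM. The groups did not overlap and the log2 fold change of -0.77 ± 0.10 (SE), edgeR adjusted p = 3.50e-06 did not reach the cut-off on size. CRE- AMs had 166 to 201 CPM. Zeb1, the other member of the family, moved the opposite way, with 12.9, 14.04, 16.2, 15.2 and 14.4 CPM in CD11b+ and 0.980, 4.22, 5.14, 5.12 and 1.88 CPM in CD11b- AMs. Its log2 fold change was 2.07 ± 0.38 (SE), edgeR adjusted p = 2.63e-04, and the CD11b- samples overlapped the CRE- AMs (1.21 to 5.38 CPM). The plot of values by sample shows both genes beside the sort markers.

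**Figure D2:**
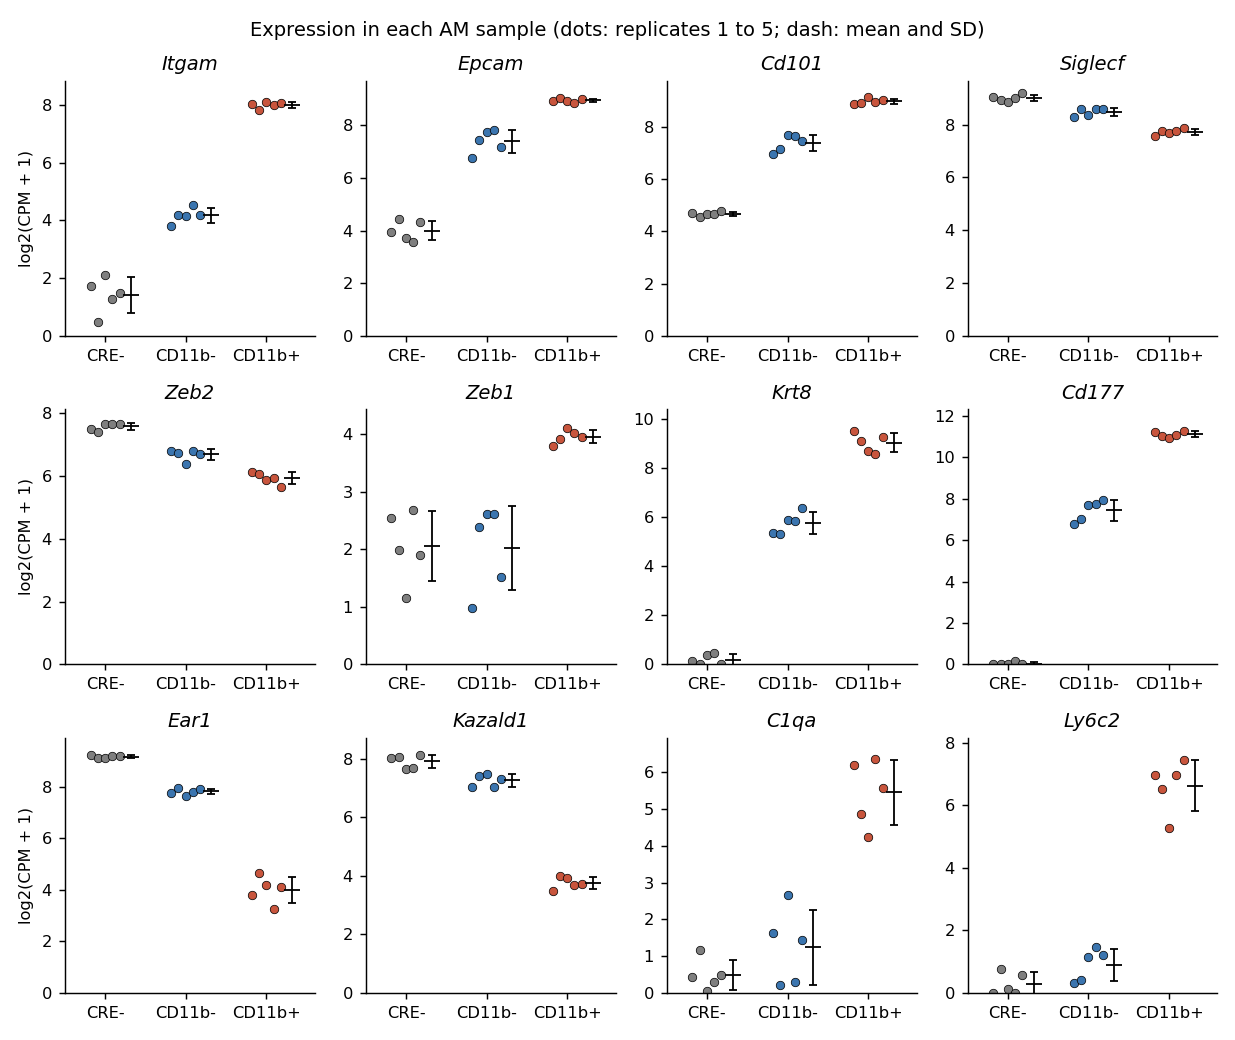
Each panel is a gene, the vertical axis is log2(CPM + 1) from 0, and dots are the 5 replicates of CRE- (grey), CD11b- (blue) and CD11b+ (red) AMs with the mean and SD as a dash and bar. Itgam, Epcam, Cd101, Krt8 and Cd177 rise in steps over the 3 groups, Ear1 and Kazald1 fall, and C1qa and Ly6c2 are near 0 in both CRE- and CD11b- AMs.

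Epithelial genes were the group closest to the known targets of ZEB factors. Of 38 genes of epithelial junctions, keratins and other ZEB-repressed genes, 28 had enough reads to test, 11 were higher in CD11b+ AMs and none was lower. Their median log2 fold change was 1.15, against 0.02 over all genes, and 15 of the 28 did not overlap between groups in the direction of CD11b+ (14.7% of all genes did so). Promoter sequences, from RefSeq on GRCm38.p6, are shown for 6 of the higher genes with a single listed start, to set 4 that hold CACCTG or its reverse complement CAGGTG (in capitals) beside 2 that do not. Each line is the 250 bases before the start, 5′ to 3′ on the strand of the gene.

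Epcam: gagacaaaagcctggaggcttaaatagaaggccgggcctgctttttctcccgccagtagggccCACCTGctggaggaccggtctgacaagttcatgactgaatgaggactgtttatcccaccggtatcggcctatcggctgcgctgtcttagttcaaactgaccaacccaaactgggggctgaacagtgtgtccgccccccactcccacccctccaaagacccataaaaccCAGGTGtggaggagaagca
Krt8: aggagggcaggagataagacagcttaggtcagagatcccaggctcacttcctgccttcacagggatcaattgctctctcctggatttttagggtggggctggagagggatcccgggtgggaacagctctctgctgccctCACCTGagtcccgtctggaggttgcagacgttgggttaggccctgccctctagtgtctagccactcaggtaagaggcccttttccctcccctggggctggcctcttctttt
Krt18: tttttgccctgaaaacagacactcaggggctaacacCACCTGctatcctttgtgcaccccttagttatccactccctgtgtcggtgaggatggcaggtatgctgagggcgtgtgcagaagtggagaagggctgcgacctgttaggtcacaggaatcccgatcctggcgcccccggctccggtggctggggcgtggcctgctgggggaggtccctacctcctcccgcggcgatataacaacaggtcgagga
Spint2: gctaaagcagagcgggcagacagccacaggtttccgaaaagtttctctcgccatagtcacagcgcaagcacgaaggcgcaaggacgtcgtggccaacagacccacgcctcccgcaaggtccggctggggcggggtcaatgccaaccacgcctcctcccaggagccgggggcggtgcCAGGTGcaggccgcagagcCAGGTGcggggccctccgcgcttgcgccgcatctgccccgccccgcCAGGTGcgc
Cldn1: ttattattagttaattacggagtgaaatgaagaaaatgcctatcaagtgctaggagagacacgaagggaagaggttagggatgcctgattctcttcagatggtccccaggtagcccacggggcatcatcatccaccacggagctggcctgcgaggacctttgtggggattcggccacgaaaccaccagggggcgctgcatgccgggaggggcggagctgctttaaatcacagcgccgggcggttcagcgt
Jup: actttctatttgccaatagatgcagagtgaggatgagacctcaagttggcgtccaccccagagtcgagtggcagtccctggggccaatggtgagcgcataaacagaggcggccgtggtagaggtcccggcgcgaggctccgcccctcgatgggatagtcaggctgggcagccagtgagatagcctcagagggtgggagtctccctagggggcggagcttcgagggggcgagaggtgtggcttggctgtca

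The letters stood 187 and 19 bases before the start in Epcam (chr17:87635729-87635978, plus strand), 111 bases before it in Krt8 (chr15:102004343-102004592, minus strand), 214 in Krt18 (chr15:102027966-102028215, plus strand) and 74, 55 and 9 in Spint2 (chr7:29281978-29282227, minus strand). They were not in these windows of Cldn1 (chr16:26371840-26372089, minus strand) or Jup (chr11:100397791-100398040, minus strand). Counted over 300 bases, from 250 before to 50 after the start, 5 of the 9 higher epithelial genes with an entry held the letters on either strand (at any listed start, for a gene with several), against 20.2% of all 32851 promoters in the table. Of the higher genes as a whole, 594 of 793 had an entry and 30.5% of these held the letters, so the epithelial genes are not the only higher genes above the share of all promoters. Of the 382 lower genes, 288 had an entry and 23.6% held them. Of the 8936 genes tested that had an entry, 20.3% held the letters. Under 80% of the higher and of the lower genes had an entry, so a test of their shares would be void. No share was tested, that of the epithelial genes included. A match of 6 letters is a description and not a bound site.

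The 2 keratins that pair in simple epithelia had the largest changes of the list. Krt8 had 733, 554, 419, 380.2 and 627 CPM in CD11b+ and 40.6, 39.2, 58.3, 57.1 and 82.8 CPM in CD11b- AMs, and at most 0.371 CPM in CRE- AMs. Krt18 had 63.8, 50.8, 33.6, 32.6 and 72.7 CPM in CD11b+ and 3.43, 2.27, 3.46, 6.01 and 7.29 CPM in CD11b- AMs. Neither gene overlapped between the groups, and the log2 fold changes were 3.29 ± 0.22 (SE), edgeR adjusted p = 1.09e-09 for Krt8 and 3.50 ± 0.40 (SE), edgeR adjusted p = 1.25e-06 for Krt18. The tight junction scaffold Tjp3 was at 106 to 139.7 against 14.3 to 27.1 CPM (log2 fold change 2.50 ± 0.16 (SE), edgeR adjusted p = 5.66e-10), and the membrane protease St14 at 59.2 to 85.5 against 9.60 to 38.6 CPM (1.80 ± 0.25 (SE), edgeR adjusted p = 1.46e-05). Spint2, an inhibitor of such proteases, was at 170.5 to 207 CPM in CD11b+ against 40.04 to 73.1 CPM in CD11b- AMs and 6.31 to 10.2 CPM in CRE- AMs. Cldn1, Cldn12, Jup, Cd24a and Spint1 were the remaining higher members besides Epcam, with log2 fold changes from 1.09 to 1.44. Cdh1, encoding E-cadherin, was not called between the Cre+ groups, though both lay above the CRE- AMs (72.8 to 110 CPM). It had 318, 381, 298, 354 and 307 CPM in CD11b+ and 300, 282, 216, 261 and 257 CPM in CD11b- AMs, which overlapped, at a log2 fold change of 0.33 ± 0.11 (SE), edgeR adjusted p = 0.0182. Of 12 mesenchymal genes, 7 were testable, with 2 higher and none lower. One of these was Fn1, the fibronectin gene, at 254 to 436 CPM in CD11b+ against 62.98 to 159.9 CPM in CD11b- AMs, and CRE- AMs had still more (579 to 1011 CPM). Markers of lung epithelial cells gave 1 call. Of 13, 11 were testable, 1 (Napsa) was higher, and Sftpc, the surfactant protein C gene of type II cells, had 16.9 to 29.8 against 14.3 to 22.99 CPM (log2 fold change 0.31, edgeR adjusted p = 0.187). Their summed level was 120 to 154 CPM in CD11b+, 73.02 to 98.3 CPM in CD11b- and 102 to 120 CPM in CRE- AMs, with the lineage factor Nkx2-1 at 0.252 CPM or less in both Cre+ groups. Napsa alone held 62.5 to 93.8 CPM of it in CD11b+, 21.8 to 37.3 CPM in CD11b- and 68.4 to 85.8 CPM in CRE- AMs.

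Genes of neutrophils and their granules were higher in CD11b+ AMs for most members tested. Of 26 such genes, 25 were in the tables (Ly6g was not) and 18 were testable. CD11b+ AMs had 13 of them higher and none lower (6.85% and 3.3% of all genes), and 13 lay wholly higher (14.7% of all genes). The median log2 fold change was 2.20. The alarmins S100a8 and S100a9, which form calprotectin, were among the 5 changed genes with most reads. S100a8 had 5083, 4224, 3928, 4030 and 4237 CPM in CD11b+ and 353, 454, 882, 1208 and 593 CPM in CD11b- replicates, and 2.73 to 5.94 CPM in CRE- AMs. Every CD11b+ sample lay above every CD11b- sample, by a log2 fold change of 2.62 ± 0.24 (SE), edgeR adjusted p = 7.34e-08, and S100a9 did likewise (3090 to 4130 against 254 to 796 CPM; 2.85 ± 0.23 (SE), edgeR adjusted p = 1.36e-08). Cd177, a surface glycoprotein of neutrophils, had 2390, 2066, 1955, 2131 and 2451 CPM in CD11b+ and 109, 127, 209, 211 and 239.8 CPM in CD11b- AMs. It was listed at 0 in 4 of the 5 CRE- samples and at 0.139 CPM in the other, and the CD11b+ to CD11b- log2 fold change was 3.62 ± 0.18 (SE), edgeR adjusted p = 2.46e-11. The chemokine receptor Cxcr2 (482 to 617 against 84.9 to 230.2 CPM) and the G-CSF receptor Csf3r (332 to 374 against 86.8 to 123 CPM) were higher by 1.92 and 1.70 on the log2 scale.

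The list ran from abundant to barely detected genes. Lcn2, encoding the iron-binding lipocalin 2 of granules (109.8 to 172 against 26.1 to 106 CPM), and the IL-36 gamma gene Il1f9 (282 to 364 against 51.4 to 110.5 CPM) were higher by 1.05 and 2.02 on the log2 scale. Mmp9, encoding gelatinase B, had 16.04, 10.5, 8.002, 19.6 and 16.8 CPM in CD11b+ AMs and was listed at 0 in 4 CD11b- samples and at 0.049 CPM in the other. That is 1329 reads against 1 over the groups, a ratio of 1491 with a 95% counting interval of 267 to 58916 (exact binomial), so its fitted log2 fold change of 9.84 ± 0.71 (SE), edgeR adjusted p = 2.75e-09 has no firm size. Retnlg reached 1.52 to 4.57 CPM and Ltf, lactoferrin, 11.1 to 23.7 CPM in CD11b+ AMs, against 0 to 0.147 and 1.05 to 2.70 CPM in CD11b- AMs. The primary granule genes Elane, Mpo and Ctsg were at 0 in all 15 AM samples, and Prtn3 was at 0.355 CPM or less. The secondary granule genes Ngp and Camp, too low to test, ranged from 0 to 13.4 and from 0 to 3.38 CPM in CD11b+ samples and were at 0 in all CD11b- samples. Mmp8, Fpr1, Fpr2 and Trem1 were well expressed in both groups and were not called, with Trem1 at 114 to 160 CPM in CD11b+ and 124 to 207 CPM in CD11b- AMs. The summed neutrophil list came to 11492 to 14197 CPM in CD11b+, 1873 to 3986 CPM in CD11b- and 899 to 1105 CPM in CRE- AMs. The part of any neutrophils in these values was not tested.

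Genes of interstitial and other tissue macrophages gave the largest median of any list. Of 13 genes, 12 were testable, 11 were higher and none lower, and the median log2 fold change was 3.93. C1qa, C1qb and C1qc, which sit side by side on chromosome 4 and encode the subunits of the complement starter C1q, were low in CRE- and CD11b- AMs. C1qa had 72.5, 28.03, 18.02, 80.4 and 46.7 CPM in CD11b+ and 2.11, 0.159, 5.32, 0.225 and 1.69 CPM in CD11b- AMs. The groups did not overlap, at a log2 fold change of 4.68 ± 0.62 (SE), edgeR adjusted p = 7.20e-06, and C1qb (4.32) and C1qc (4.47) followed it sample by sample, with replicate 3 lowest and replicate 4 highest of the CD11b+ samples for each. Folr2, a folate receptor of resident macrophages, had 4.44, 7.24, 2.97, 12.4 and 5.19 CPM in CD11b+ and 0.0980, 0, 0, 0.225 and 0 CPM in CD11b- AMs (6.65 ± 0.78 (SE), edgeR adjusted p = 1.61e-06). Cx3cr1, the fractalkine receptor, had 4.93 to 13.1 against 0 to 1.23 CPM, with a log2 fold change of 4.89. Apoe, the apolipoprotein, had the highest reads of the list in CD11b+ AMs and differed in pattern from these, since it was already well above the controls in CD11b- AMs: 24.1 to 58.8 CPM in CRE-, 266 to 391 CPM in CD11b- and 1116 to 2003 CPM in CD11b+ AMs (2.35 ± 0.20 (SE), edgeR adjusted p = 1.94e-08). Lyve1 rose in like steps, at 0 to 0.348, 2.5 to 7.03 and 23.55 to 37.35 CPM in CRE-, CD11b- and CD11b+ AMs. The list summed to 1678 to 2666 CPM in CD11b+, 868 to 1053 CPM in CD11b- and 686 to 904 CPM in CRE- AMs. Mrc1 was the testable member not higher, at 417 to 519.9 CPM in CD11b+ and 528 to 656 CPM in CD11b- AMs. With 627 to 839 CPM in CRE- AMs, Mrc1 made up most of the list's sum in the CD11b- and CRE- groups.

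Monocyte genes moved in part. Of 17 genes, 16 were testable, 9 were higher and 1 lower, with a median log2 fold change of 1.09. F13a1, the A subunit of coagulation factor XIII and a gene of classical monocytes, had 35.4, 36.7, 17.97, 68.4 and 30.1 CPM in CD11b+ and 0.343, 0, 0, 0.731 and 0 CPM in CD11b- AMs. Ly6c2, which encodes part of the Ly6C antigen and shares sequence with its neighbor Ly6c1, had 124, 90.6, 37.6, 124 and 174 CPM in CD11b+ and 0.245, 0.319, 1.23, 1.74 and 1.30 CPM in CD11b- AMs. Both were separated by group, with log2 fold changes of 7.57 ± 0.74 (SE), edgeR adjusted p = 1.65e-07 for F13a1 and 6.87 ± 0.49 (SE), edgeR adjusted p = 2.47e-09 for Ly6c2. CD11b+ replicate 3 was lowest for both, as it was for the C1q genes. Plac8 (6.39 to 28.02 against 0.0797 to 0.917 CPM) was also higher, by 4.82 on the log2 scale. The monocyte receptor gene Ccr2 sat at the cut-off, at a log2 fold change of 1.005, and its groups overlapped (17.4 to 42.02 against 8.23 to 21.4 CPM). Vcan, another defining gene of classical monocytes, was at 0 in all CD11b+ and CD11b- samples. Among genes of patrolling monocytes, Spn, encoding CD43, was the member called lower (3.84 to 8.68 against 13.04 to 17.4 CPM, -1.23 ± 0.18 (SE), edgeR adjusted p = 1.71e-05). Treml4 was also wholly lower (17.8 to 31.01 against 32.4 to 62.6 CPM) at a log2 fold change of -0.84, inside the cut-off, and Nr4a1, Ace and Fcgr4 were not called. The monocyte sum includes the AM gene Chil3 and so was high everywhere, at 38199 to 52381 CPM in CD11b+, 20949 to 29837 CPM in CD11b- and 17915 to 28361 CPM in CRE- AMs.

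Markers of other cell types were described in the same way. Of 11 dendritic cell genes 10 were testable and 4 were higher, their sum being 423 to 671 CPM in CD11b+, 193 to 239 CPM in CD11b- and 71.7 to 114 CPM in CRE- AMs, mostly from Cd24a. Of 8 B cell genes 5 were testable and 4 were higher, among them Ms4a1, encoding CD20, at 46.5 to 77.8 against 12.3 to 38.4 CPM (log2 fold change 1.48). The B cell factor Pax5 was at 0 in all 15 AM samples. The sums, mostly from Ms4a1 in the Cre+ groups, were 60.7 to 87.6, 14.95 to 44.3 and 8.09 to 12.99 CPM in CD11b+, CD11b- and CRE- AMs. None of 6 eosinophil genes had enough reads to test, with Prg3 at 0 throughout and sums of 0.118 to 8.29, 0 to 2.09 and 0 to 0.360 CPM. Of 7 mast cell and basophil genes 2 were testable and none was called, at sums of 0.345 to 3.38, 0 to 1.68 and 0 to 2.04 CPM, with Mcpt8, Mcpt4 and Ms4a2 at 0. Of 12 T and NK cell genes 9 were testable and Cd4 alone was higher, with sums of 390 to 434, 368 to 406 and 284 to 324 CPM. Most of each sum was Cd2, at 382 to 420, 359 to 398 and 278 to 317 CPM in CD11b+, CD11b- and CRE- AMs. Of 12 endothelial and fibroblast genes 7 were testable and 1, Pecam1, was higher, at sums of 17.5 to 38.3, 2.08 to 37.6 and 7.83 to 23.5 CPM. Of 5 erythroid genes 1 was testable and not called, and no sum passed 2.38 CPM. The part of such cells in the differences between CD11b+ and CD11b- AMs was not tested.

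**Figure D3:**
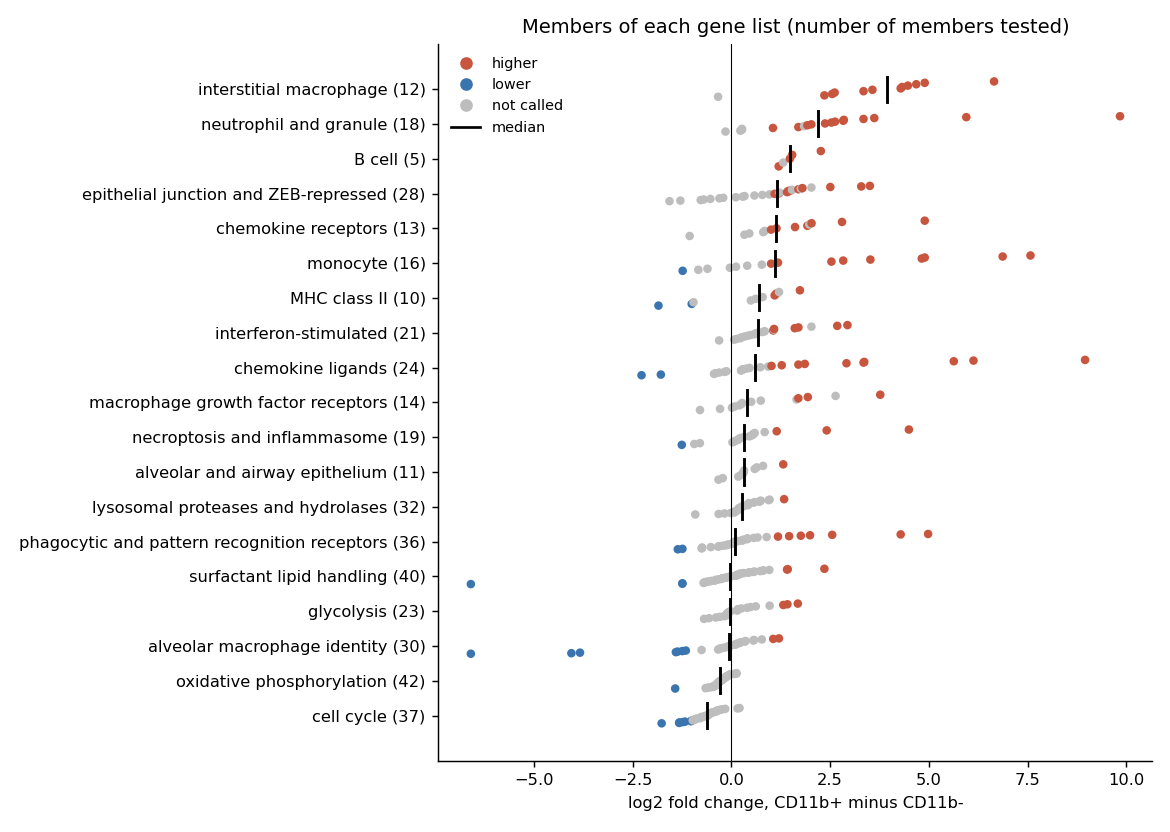
Each row is a gene list with the number of its members tested, the horizontal axis is the log2 fold change of CD11b+ over CD11b- AMs, and each point is a gene, colored by whether it was higher, lower or not called. The black bar is the median of the list, which is 3.93 for interstitial macrophage genes, 2.20 for neutrophil genes, 1.15 for epithelial genes, -0.05 for AM identity genes and -0.61 for cell cycle genes.

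The AM identity list held more lower than higher members, while its median stayed near 0. Of 30 genes, all testable, 7 were lower in CD11b+ AMs (3.3% of all genes were), 2 were higher (6.85% of all genes were) and 21 were not called. The median log2 fold change was -0.05. The lower genes were Gpd1, Hr, Ear1, F7, Ear2, Fabp4 and Krt79. Gpd1, the glycerol-3-phosphate dehydrogenase that feeds triglyceride synthesis, had 0, 0.296, 0.0503, 0 and 0 CPM in CD11b+ and 3.87, 9.48, 5.27, 10.3 and 9.70 CPM in CD11b- AMs, against 40.8 to 69.6 CPM in CRE- AMs, so it was already reduced in the CD11b- cells and close to absent in the CD11b+ cells (-6.60 ± 0.50 (SE), edgeR adjusted p = 5.40e-09). Ear1, an eosinophil-associated ribonuclease with close paralogs that may share its reads, had 12.8, 24.1, 17.2, 8.47 and 16.1 CPM in CD11b+ and 216, 246, 201, 222 and 238 CPM in CD11b- AMs, with 546 to 592 CPM in CRE- AMs. Neither gene overlapped between the Cre+ groups, and the log2 fold change of Ear1 was -3.83 ± 0.17 (SE), edgeR adjusted p = 5.64e-12. F7, coagulation factor VII, went from 336 to 396 CPM in CD11b- to 118 to 152 CPM in CD11b+ AMs (-1.41), and Fabp4, a fatty acid carrier, from 26.9 to 47.8 to 13.4 to 18.7 CPM (-1.24).

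Most of the AM program was not called. With no limit on fold, 12 of the 30 passed as lower and 8 as higher, where 16.6% and 19.8% of all genes did. In CD11b+ samples 10 lay wholly lower and 5 wholly higher, where 11% and 14.7% of all genes did. Pparg, encoding PPAR gamma, had 194, 213, 204, 219.7 and 209 CPM in CD11b+ and 226, 229.9, 216, 256 and 224 CPM in CD11b- AMs, which overlapped, at a log2 fold change of -0.15 ± 0.06 (SE), edgeR adjusted p = 0.0571. The scavenger receptor gene Marco (0.10), the GM-CSF receptor gene Csf2ra (0.20) and Cebpb (-0.01) also overlapped between groups and were not called, with standard errors from 0.08 to 0.11. Flt1, encoding VEGF receptor 1, was higher in CD11b+ AMs, at 122 to 144 against 40.1 to 75.5 CPM (1.20 ± 0.15 (SE), edgeR adjusted p = 3.24e-06). Car4, a carbonic anhydrase, had 1074 to 1963 against 465 to 1139 CPM and sat at the cut-off: its log2 fold change of 1.06 became 0.95 without CD11b+ replicate 3, 0.93 without CD11b- replicate 2 and 0.99 without CD11b- replicate 5. Chil3, the chitinase-like protein Ym1, was higher without reaching the cut-off (35951 to 50254 against 19181 to 28167 CPM, log2 fold change 0.77). The 40 genes of surfactant lipid handling, which share Gpd1 and Fabp4 with this list and Apoe with the macrophage list, had 3 higher and 3 lower members and a median of -0.02. With no limit on fold, 14 of the 40 passed as higher and 16 as lower, and 9 lay wholly higher and 12 wholly lower. Called members not yet described included Dgat2, which makes triglyceride (653 to 843 against 234 to 348 CPM, 1.41) and the scavenger receptor gene Msr1 (-1.24).

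**Figure D4:**
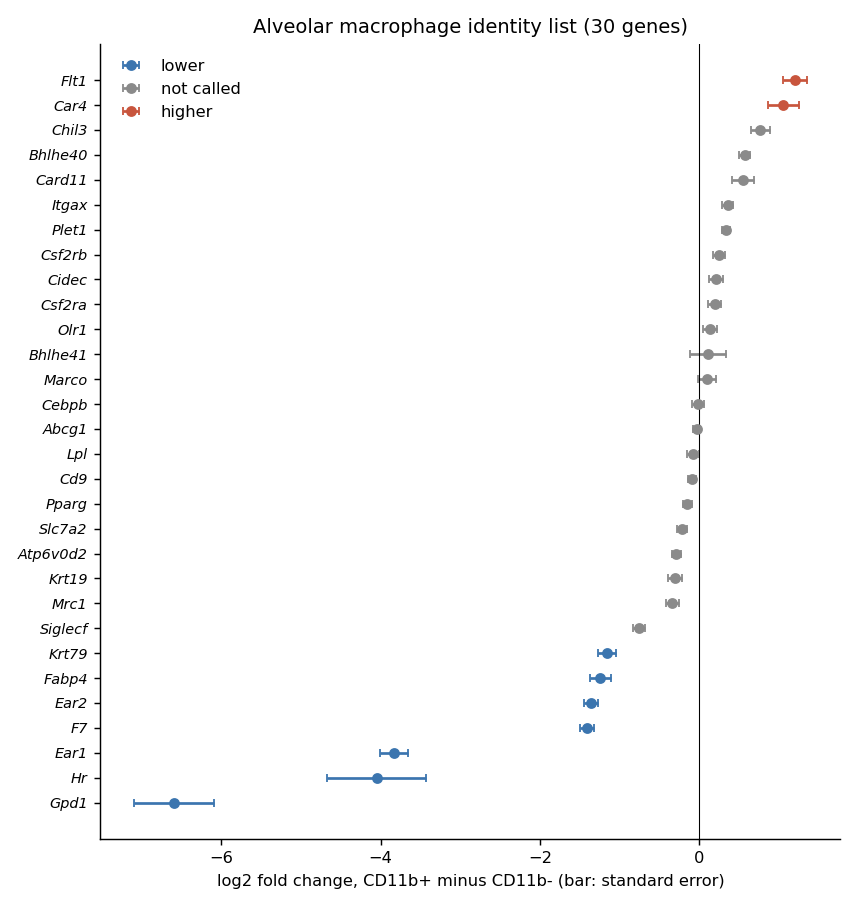
The horizontal axis is the log2 fold change of CD11b+ over CD11b- AMs with its standard error, for each of the 30 AM identity genes. Gpd1 (-6.60), Hr (-4.05) and Ear1 (-3.83) lie far below the rest, Flt1 and Car4 are just over 1, and most of the list lies within 1 of 0.

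The 12 largest decreases with at least 5 log2 CPM in CD11b- AMs came from varied families. After Ear1 they were led by Kazald1, a secreted Kazal-domain protein, with 10.2, 14.98, 14.2, 12.02 and 12.2 CPM in CD11b+ and 129.9, 172, 179, 131 and 157 CPM in CD11b- AMs, and by Clec4a2, an inhibitory C-type lectin receptor, with 4.14, 7.69, 4.68, 4.56 and 8.29 CPM in CD11b+ and 68.3, 68.7, 72.7, 64.2 and 70.8 CPM in CD11b- AMs. Both were well separated, at log2 fold changes of -3.59 ± 0.13 (SE), edgeR adjusted p = 3.19e-13 for Kazald1 and -3.55 ± 0.15 (SE), edgeR adjusted p = 2.50e-12 for Clec4a2. The nucleotide receptor gene P2ry2 (-3.02), the fatty acid carrier gene Fabp1 (-2.58), the purine enzyme gene Gmpr (-2.53), the actin-binding peptide gene Tmsb10 (-2.73), the Rab exchange factor gene Rab3il1 (-2.49), the formin gene Fmnl3 (-2.40) and the Arf exchange factor gene Cyth4 (-2.38) followed, with Fam189a2 (-2.75). In these 11 genes, Ear1 included, the CRE- samples lay above the CD11b- samples or overlapped them. Prom1, encoding CD133, was the exception, with 33.2 to 49.4 CPM in CRE-, 60.5 to 80.04 CPM in CD11b- and 5.33 to 17.97 CPM in CD11b+ AMs (-2.64).

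Of the 12 largest increases at the same level, those not yet described were Slc26a4, Krt6b, Entpd3, Mmp14 and Inhba. Slc26a4, the anion exchanger pendrin, had 41.8, 15.8, 43.3, 35.5 and 33.8 CPM in CD11b+ and 1.37, 0.159, 0.182, 0.337 and 0.0965 CPM in CD11b- AMs and was at 0 in all CRE- samples, as were Krt6b, a keratin, and Entpd3, an ectonucleotidase. Their log2 fold changes were 6.32, 4.77 and 3.95. Inhba, the subunit of activin A, had 216, 239, 272, 322 and 175 CPM in CD11b+ and 11.3, 12.99, 25.8, 26.9 and 19.01 CPM in CD11b- AMs (3.68 ± 0.30 (SE), edgeR adjusted p = 1.74e-08), and the membrane metalloprotease gene Mmp14 had 66.3 to 159 against 3.46 to 10.98 CPM (3.88). Among the changed genes with most reads were Ccl6, a CC chemokine, Trf, transferrin, and Gpnmb, a lysosomal glycoprotein. Trf had 7841, 7750, 8030, 7883 and 8237 CPM in CD11b+ and 2418, 3122, 3234, 3654 and 3261 CPM in CD11b- AMs (1.34 ± 0.08 (SE), edgeR adjusted p = 2.21e-10), and the CD11b- samples overlapped the CRE- AMs (2903 to 3468 CPM). Gpnmb had 2529 to 3170 against 1298 to 1474 CPM (1.07). Ccl6 had 16670 to 21014 against 7772 to 9892 CPM without overlap, but its log2 fold change of 1.02 fell under the cut-off without CD11b+ replicate 1 (0.95), CD11b- replicate 2 (0.97) or CD11b- replicate 5 (0.98), and in a fit of only the 10 samples compared (0.985; 0.987 with the replicate block).

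The 793 higher genes differed in where they started. In 427 of them both CRE- and CD11b- AMs had a mean of at least 1 CPM, and in 113 the CD11b- AMs passed 1 CPM while the CRE- AMs did not, as for Krt8, Cd177 and S100a9. A further 210 were under 1 CPM in both, as for F13a1, Mmp9 and Folr2, and 43 were under 1 CPM in CD11b- but not in CRE- AMs. The heat map of 33 genes sets genes of the kinds of Krt8 and F13a1 beside genes that were lower. The higher genes as a whole took 8.44% of gene reads in CD11b+ AMs, 3.34% in CD11b- AMs and 2.16% in CRE- AMs. Of the 382 lower genes, 363 had a mean of at least 1 CPM in CRE- AMs and 102 had a mean under 1 CPM in CD11b+ AMs.

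**Figure D5:**
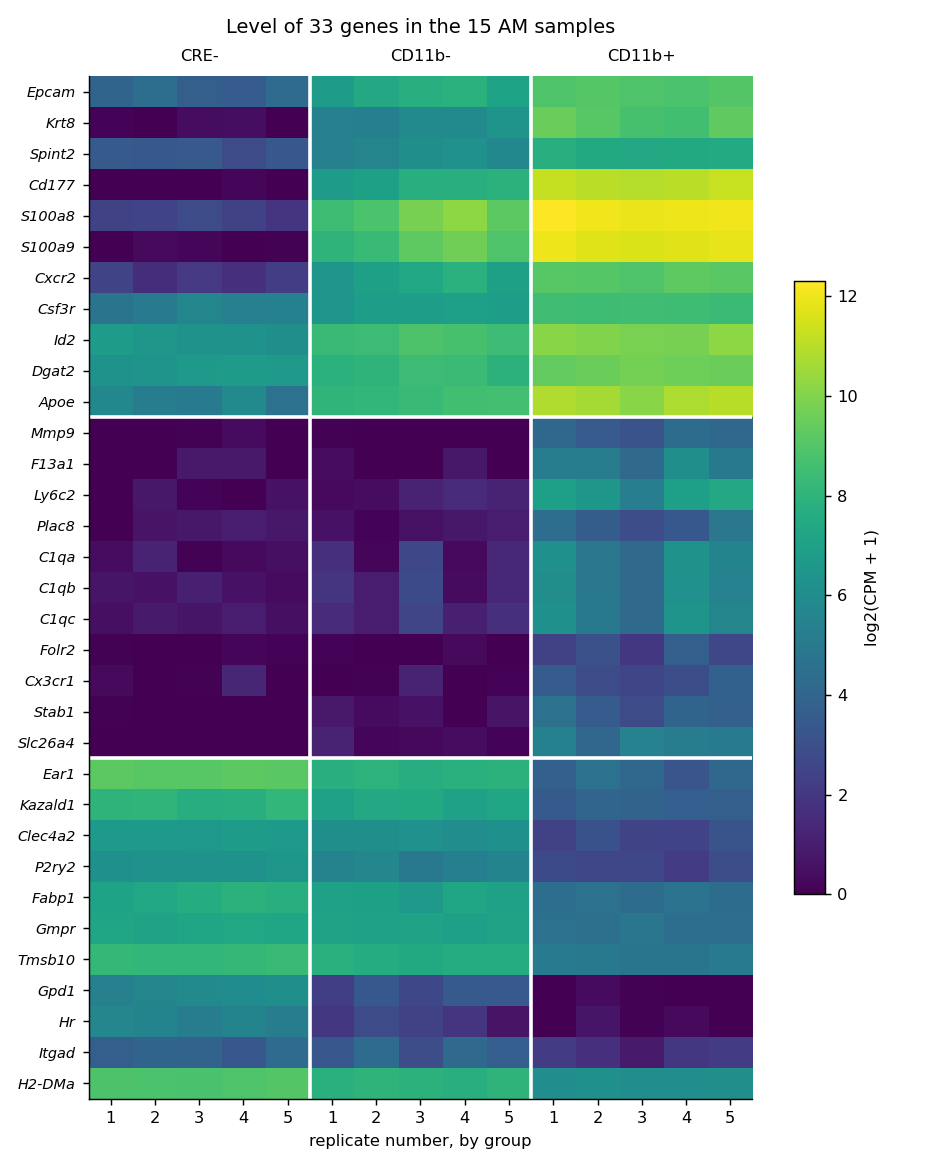
Rows are 33 genes, columns the 5 replicates of CRE-, CD11b- and CD11b+ AMs, and color is log2(CPM + 1). The top 11 genes are intermediate in CD11b- AMs, the next 11 are low in all but the CD11b+ samples, of which replicate 3 is darkest (lowest) for C1qa and Ly6c2, and the last 11 are lowest in CD11b+ AMs.

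Genes of chemokines and their receptors were called higher more often than lower, as were all genes tested (6.85% higher, 3.3% lower). Of 29 ligand genes 24 were testable, 10 were higher and 2 lower, with a median log2 fold change of 0.60, and of 20 receptor genes 13 were testable, 7 were higher and none lower (median 1.14). Ccl8, a monocyte attractant, had 5.92, 2.02, 1.61, 1.62 and 3.89 CPM in CD11b+ AMs and no read in any CD11b- or CRE- sample, so it was at least 21.03-fold higher in CD11b+ AMs, taking 3 reads in each CD11b- library as the floor. Csf1, the ligand of the macrophage growth factor receptor, was higher (7.44 to 15.7 against 0.193 to 1.59 CPM, 3.77 ± 0.43 (SE), edgeR adjusted p = 1.04e-06), whereas its receptor gene Csf1r was not called (288 to 365 against 299 to 347 CPM, 0.08). Tgfbr2, a receptor for TGF-beta, had 634 to 719 against 523 to 601 CPM (0.27). The list of growth factor receptor genes, which also holds the ligand gene Csf1, had 14 of 17 testable, 3 higher and none lower (median 0.39). The higher ones were Csf1 itself, Csf3r and Il3ra. Of 25 integrin genes 19 were testable, with 2 higher and 2 lower (median 0.46). The higher ones were Itgam, whose product was sorted on, and Itgb7, which overlapped between groups (2.42 to 19.2 against 1.23 to 6.13 CPM). Itgb7 also missed the cut-off on adjusted p with limma-voom. Itgad, encoding the alpha D chain that like CD11b pairs with beta 2, was among the lower (0.856 to 3.61 against 6.64 to 18.9 CPM, -2.32 ± 0.33 (SE), edgeR adjusted p = 1.85e-05).

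Interferon-stimulated genes and some genes of necroptosis were higher in CD11b+ AMs. Of 19 genes of necroptosis and the inflammasome, all testable, 3 were higher and 1 lower (median 0.31), 16 had a log2 fold change above 0 (52.2% of all genes did), and their sum was 3791 to 4047 CPM in CD11b+ against 2497 to 3120 CPM in CD11b- AMs. Most of that sum came from Il1a, Il1b and Il1rn. Ripk3, the kinase that triggers necroptosis, had 84.9, 63.5, 92.8, 73.7 and 69.5 CPM in CD11b+ and 11.8, 10.6, 25.3, 10.5 and 13.9 CPM in CD11b- AMs (2.41 ± 0.21 (SE), edgeR adjusted p = 4.05e-08), while Mlkl, the protein it phosphorylates to break the membrane, had 3.02, 3.20, 5.64, 1.77 and 3.38 and 10.1, 8.93, 9.59, 6.07 and 5.98 CPM (-1.26 ± 0.28 (SE), edgeR adjusted p = 0.00136). The IL-1 decoy receptor gene Il1r2 was at 4.38 to 9.59 against 0.0562 to 1.01 CPM (4.49). Il1a (477.5 to 541 against 272 to 403 CPM, 0.59) and Il1b (911 to 1484 against 407.5 to 877 CPM, 0.84) did not overlap but stayed inside the cut-off on size. Casp1 (0.11) overlapped between groups and was not called. Of 16 apoptosis genes 1 was higher and none lower (median 0.03). Interferon-stimulated genes had 21 of 24 testable, 6 higher and none lower (median 0.67), and 20 of the 21 had a log2 fold change above 0. Their sum was 504 to 681 against 355 to 471 CPM, without overlap. The calls were led by Oasl2 (49.2 to 93.6 against 6.93 to 15.6 CPM, 2.94 ± 0.31 (SE), edgeR adjusted p = 3.54e-07) and Oas3 (2.68). Of 40 phagocytic and pattern recognition receptor genes 36 were testable, 7 were higher and 2 lower (median 0.10). The scavenger receptor gene Stab1 (6.34 to 24.3 against 0 to 0.784 CPM, 4.98) and the endosomal RNA sensor gene Tlr8 (39.4 to 53.95 against 89.8 to 130.2 CPM, -1.36) marked the ends of that list.

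MHC class II genes went both ways, with 10 of 11 testable, 3 higher, 2 lower and a median of 0.70. Cd74, the invariant chain, had 689, 353, 453, 611 and 577 CPM in CD11b+ and 204, 109.5, 164, 151 and 178 CPM in CD11b- AMs (1.74 ± 0.26 (SE), edgeR adjusted p = 2.90e-05). H2-DMa, which loads peptide, had 64.2, 71.9, 64.7, 63.9 and 66.9 and 224, 259, 239, 218 and 253 CPM in the opposite direction (-1.85 ± 0.07 (SE), edgeR adjusted p = 3.19e-13), and CRE- AMs had 439 to 522 CPM. H2-Aa (1.09), H2-Eb1 (1.13) and H2-DMb1 (-1.005) were near the cut-offs. H2-Aa fell to 0.91 without CD11b- replicate 2 and 0.99 without CD11b+ replicate 5. H2-Eb1 missed an adjusted p of 0.05 without CD11b+ replicate 1, 4 or 5 or CD11b- replicate 1, 2 or 3 (0.0627 to 0.0834, edgeR), and H2-DMb1 missed the cut-off on size without CD11b+ replicate 1, 3 or 4 or CD11b- replicate 1, 3 or 5. H2-Ab1 (0.79) and the master regulator gene Ciita (0.61) were not called.

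Cell cycle genes were lower in CD11b+ AMs by small amounts. Of 37 genes, all testable, 7 were lower and none higher by the cut-offs, 2 had a log2 fold change above 0, and the median was -0.61 against 0.02 over all genes. Without the limit on fold, 24 of the 37 passed as lower, where 16.6% of all genes did. The number lower by the cut-offs was 4 without CD11b+ replicate 5 or without CD11b- replicate 1 or 3, and 12 without CD11b- replicate 4. Ccnb2, a cyclin of mitosis, had 18.2, 16.2, 27.1, 11.8 and 14.4 CPM in CD11b+ and 64.01, 63.05, 70.7, 41.4 and 58.9 CPM in CD11b- AMs, which did not overlap (-1.77 ± 0.19 (SE), edgeR adjusted p = 4.79e-07). Top2a was not called (-0.57), and Mki67, encoding the proliferation antigen Ki-67, had 8.34 to 20.5 against 5.23 to 21.6 CPM (0.21 ± 0.26 (SE), edgeR adjusted p = 0.584). Of 14 genes of cell cycle inhibitors and D cyclins, 13 were testable, with 1 higher and 2 lower (median -0.03). The higher one was Gadd45a, which is induced by DNA damage and stress, with 40.3, 40.1, 42.2, 39.6 and 47.6 CPM in CD11b+ and 4.80, 6.06, 9.82, 8.04 and 5.64 CPM in CD11b- AMs (2.61 ± 0.19 (SE), edgeR adjusted p = 4.03e-09).

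Metabolic and lysosomal lists gave few calls at the cut-off on size. Of 42 nuclear genes of oxidative phosphorylation, all testable, 1 passed the cut-offs, Ndufa4, at 46.8 to 54.9 CPM in CD11b+ against 128 to 146 CPM in CD11b- AMs (-1.42 ± 0.07 (SE), edgeR adjusted p = 9.09e-12). The list had a median of -0.28, and 25 of the 42 lay wholly lower in CD11b+ samples, where 11% of all genes did. Of 24 glycolysis genes 23 were testable and 3 were higher, with a median of -0.02, including the glucose transporter gene Slc2a1 (239.8 to 271 against 95.3 to 111 CPM, 1.31 ± 0.09 (SE), edgeR adjusted p = 1.16e-09). Of 33 lysosomal enzyme genes 32 were testable, 1 was higher and none lower (median 0.27), but 19 of the 32 lay wholly higher in CD11b+ samples (14.7% of all genes did) and 22 passed as higher with no limit on fold (19.8% of all genes). Their sum was 49221 to 54312 CPM in CD11b+ and 41302 to 43451 CPM in CD11b- AMs. The gene past the cut-off was Smpd1, acid sphingomyelinase (1.33). Of 47 macrophage transcription factor genes 42 were testable, with 4 higher and 1 lower (median 0.20).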

How the data were processed

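The authors sorted AMs and made bulk RNA-seq libraries. Per the labels and the methods of the study, reads were trimmed (Trimmomatic 0.35, checked with FastQC 0.11.4), aligned to mm10 (TopHat2 2.1.0, SAMtools 0.1.18) and counted per gene with HTSeq-count. Strand handling is not given in the sources used here. The deposited values are raw counts per gene, with no normalization. The 5 tally rows of HTSeq-count were left out of library sizes and tests; reads on no feature were 4.52% to 5.82% and ambiguous reads 1.34% to 1.39% of the reads on genes, no feature or several genes in the AM samples.

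Counts of the 15 AM samples were fitted together in edgeR 4.0.16 (R 4.3.3; filterByExpr, TMM factors, quasi-likelihood test, Benjamini-Hochberg adjustment), which kept 11573 genes, and the contrast CD11b+ minus CD11b- was tested. The replicate number was not in the model. A gene was changed at an adjusted p under 0.05 and an absolute log2 fold change over 1. CPM are counts per 1000000 reads on TMM-corrected library sizes, and 3 reads correspond to 0.119 to 0.178 CPM. No 2 replicates of a group were alike within sampling noise (chi-square per gene at least 12.7 in 30 pairs; Pearson's r of log2 CPM 0.944 to 0.963). The labels do not say that replicates were separate animals, so p-values measure the spread between these samples, which may be technical. With no molecular identifiers, floors cover counting error only.

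Named genes were the 12 largest increases and decreases among changed genes whose samples did not overlap and whose higher group reached 5 log2 CPM on average, the sort markers and ZEB family, up to 4 called genes per direction of each list with members that were not called, and the 5 changed genes with most reads. Spint2 was added after its values were seen, for its promoter. A few genes that this rule names are not reported here. The members and lists were chosen with earlier results of these data known. On counts simulated from these samples, 78.4% of genes changed by 1.5 and 96.9% of those changed by 3 on the log2 scale were recovered among 11414 genes, with 4 false calls. Alternatives were limma-voom (limma 3.58.1), DESeq2 1.42.0, other factors, filters, cut-offs and sample sets, a replicate block, and leaving out each CD11b+ or CD11b- sample.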

Additional observations from a re-analysis of the deposited data

Results flagged for a closer look

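In 17 of 282 groups of 5 samples checked, for the named genes with at least 10 reads in the group and for 5 measures of library make-up, the highest or lowest sample stood apart from the others: its gap to the nearest sample, divided by the range of the group, passed Dixon's 95% value of 0.71. Chance flags about 1 in 20 groups, and these are 17 of 282.

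In CD11b- AMs the sample standing apart was the highest for Ccr7 (replicate 1, ratio 0.928), Cx3cr1 (replicate 3, 0.921), Il1r2 (replicate 5, 0.905), Cdkn2b (replicate 2, 0.847), Slc26a4 (replicate 1, 0.811), Ripk3 (replicate 3, 0.772), Smpd1 (replicate 4, 0.744), Rab3il1 (replicate 5, 0.728) and Cebpb (replicate 2, 0.715). It was the lowest for Zeb2 (replicate 3, 0.749) and Csf3r (replicate 1, 0.727). For Cx3cr1 that sample held 1.23 CPM and for Il1r2 1.01 CPM, both under every CD11b+ sample.

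In CD11b+ AMs the sample standing apart was the highest for Ccl24 (replicate 4, 0.874), Cxcl14 (replicate 4, 0.806), Eno3 (replicate 5, 0.799), S100a8 (replicate 1, 0.733) and Ccr9 (replicate 1, 0.716), and the lowest for Csf1r (replicate 2, 0.787).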

How the results depend on the processing

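Of 117 named genes called changed, 80 passed under every alternative that tested them and kept their direction. The test against a minimum log2 fold change of 1 no longer called 37, among them Flt1, Fabp4, Ms4a1, Gpnmb, Mlkl, Msr1 and Napsa. Under the alternatives other than that test 20 missed the cut-offs at least once, 14 of them under one other than leaving out a sample. Sign changed for 4 genes that were not called. Ptprc (0.0043) became -0.0033 without the filter on low counts, -0.0051 with the stricter filter, -0.026 with only the 10 samples compared and -0.024 with the replicate block in those 10 samples, and lay between -0.048 and 0.044 when 1 sample was left out. Cebpb lay between -0.065 and 0.053 and Mki67 between -0.0048 and 0.42 when 1 sample was left out, and Ciita (0.61) became -0.029 with limma-voom.

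The number of higher genes, 793, became 404 when only genes reaching 10 counts in all samples were kept, where 9829 genes were tested, 385 when tested against a minimum log2 fold change of 1 and 2295 with no limit on fold. The number of lower genes, 382, became 142 and 1920 under the last 2. Under the remaining settings (limma-voom, DESeq2, other factors, no filter, 10 or 33 samples) both counts stayed within 1.5 times. Leaving out 1 sample gave 743 to 820 higher and 345 to 402 lower genes. With that filter, higher neutrophil genes went from 13 to 5, monocyte genes from 9 to 2 and interstitial macrophage genes from 11 to 3, since genes near 0 in CD11b- AMs were no longer tested.

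The labels do not say whether samples with the same replicate number came from the same mice. The deviations of such samples from the group means correlated at 0.0519 to 0.0991. CD11b+ replicates 1 to 5 each correlated best with the CD11b- sample of their own number, while CD11b- replicate 2 correlated better with another (0.0636), as a hint from the data and not the design. A fit with the replicate block called 807 higher and 377 lower genes in 15 samples, and 783 and 370 in 10 samples. Depth limits genes near 3 reads per library.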

Other observations

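Among genes higher in CD11b+ AMs with a mean of at least 10 CPM there, the spread between the 5 CD11b+ samples differed with the level elsewhere. In 15 genes with a mean under 1 CPM in both CD11b- and CRE- AMs, the highest sample was a median of 2.77 times the lowest, and replicate 3 was the lowest in 7. In 73 genes with at least 1 CPM in CD11b- and under 1 CPM in CRE- AMs the median ratio was 1.65, with replicate 3 lowest in 33. In 330 genes with at least 1 CPM in both it was 1.497, with replicate 3 lowest in 105. No test was made of these differences.

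Exon length, taken from GENCODE M21 for 96.4% of the genes tested, was weakly related to the change. Across 11158 genes, which are not independent replicates, Spearman's rho of length and log2 fold change was 0.08. Among the shortest 20% of genes 4.03% were lower in CD11b+ AMs and 8.83% higher, and among the longest 20% 3.09% and 5.60%.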
